A study of Mus musculus with 77 samples.

Results

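The genes described here are 34 genes of cell proliferation. They were chosen by their role in copying DNA, in driving the cell through mitosis and in parting the chromosomes, and the rule uses no measured value. All 34 were found among the 21154 genes with a symbol on the array, with 44 probes between them, and each gene was read by its brightest probe in the retina channel. The mice were C57BL/6, and the retinas came from 6 groups of a study of oxygen-induced retinopathy (OIR), in which pups are given hyperoxia that stops the growth of retinal vessels and are then returned to room air, where the avascular retina becomes hypoxic and new vessels form. OIR litters were kept in 75% oxygen from P7 to P12 and control litters stayed in 21% oxygen throughout, and retinas were taken on P12, on P17 after 5 days in room air, and on P28. The OIR groups held 13 mice on each day, and the control groups 12 on P12, 12 on P17 and 14 on P28. Both retinas of a mouse were pooled on 1 array together with universal mouse reference RNA in the other color. Each litter received 1 treatment and each arm held several litters, but the labels do not say which litter a mouse came from, so no litter term could be fitted and the mice were treated as independent.

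A dividing cell first loads the *Mcm2* to *Mcm7* helicase onto its DNA with the help of *Cdc6*, opens the forks with *Cdc45*, and copies the strands with the sliding clamp *Pcna*, while *Rrm2* and *Tyms* make the deoxynucleotides. Cyclins A and B (*Ccna2*, *Ccnb1*, *Ccnb2*) with the kinase *Cdk1* then start mitosis, the kinases *Plk1*, *Aurka* and *Aurkb* and the survivin protein *Birc5* guide it, *Bub1* and *Bub1b* watch over the attachment of chromosomes, and *Cdc20* and *Ube2c* direct the destruction of the cyclins. Most of these transcripts are made only in cycling cells, and *Mki67* is the gene of the common proliferation marker Ki-67. The last neurons of the mouse retina leave the cycle early after birth, and endothelial cells, pericytes, glia and microglia are the cells that can still divide. In whole retina, a change in the number of dividing cells and a change in RNA per cell cannot be told apart.

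Promoters of such genes are known to share letters that were not used to choose the genes. The CCAAT box, the cell cycle homology element (TTTGAA or TTTAAA) and the core of an E2F site (TTNNCGC) were searched on both strands from 250 bases before to 50 bases after the RefSeq start (GRCm38.p6), where 29 of the 34 genes had a listed promoter. CCAAT stood in 25 of the 29 (86.2%) against 41.1% of 27025 genes. TTTGAA or TTTAAA stood in 21 (72.4%) against 30.6%, and TTNNCGC in 14 (48.3%) against 22.6%. CCAAT and the homology element stood together in 20 of the 29 against 13.4% of all genes, and all 3 motifs in 8 (27.6%) against 2.63%. These matches are letters in a window and not binding sites. *Aurkb*, *Ccna2*, *Kif20a*, *Mcm4* and *Tpx2* had no listed promoter.

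The 250 bases before the start are printed for the 4 genes that carry the P17 result below, with every motif match in capitals. *Mki67* lies at chr7:135716380-135716629 on the minus strand, *Birc5* at chr11:117848987-117849236 on the plus strand, *Mcm3* at chr1:20820313-20820562 on the minus strand, and *Prc1*, a protein that bundles microtubules of the dividing cell, at chr7:80294226-80294475 on the plus strand, for the second of its 2 listed starts. They differ in what they hold. In these 250 bases *Mki67* has 3 CCAAT boxes, 2 homology elements and 2 E2F cores, and *Mcm3* has 3 CCAAT boxes alone. *Birc5* has 1 homology element alone, and *Prc1* has 1 of each, of which the CCAAT box and the E2F core touch. *Mcm3* also has 3 matches to the E2F core in the 50 bases after the start, which were searched but are not printed.
Mki67: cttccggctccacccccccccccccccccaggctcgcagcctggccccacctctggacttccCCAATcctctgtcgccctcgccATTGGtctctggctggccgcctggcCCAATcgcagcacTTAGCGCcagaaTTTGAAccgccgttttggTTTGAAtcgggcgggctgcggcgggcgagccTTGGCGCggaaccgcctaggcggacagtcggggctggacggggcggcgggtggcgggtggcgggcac
Birc5: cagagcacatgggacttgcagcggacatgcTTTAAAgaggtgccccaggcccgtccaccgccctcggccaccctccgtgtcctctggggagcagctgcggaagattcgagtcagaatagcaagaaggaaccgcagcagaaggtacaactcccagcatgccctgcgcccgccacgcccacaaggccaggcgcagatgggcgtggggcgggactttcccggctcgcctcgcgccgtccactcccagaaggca
Mcm3: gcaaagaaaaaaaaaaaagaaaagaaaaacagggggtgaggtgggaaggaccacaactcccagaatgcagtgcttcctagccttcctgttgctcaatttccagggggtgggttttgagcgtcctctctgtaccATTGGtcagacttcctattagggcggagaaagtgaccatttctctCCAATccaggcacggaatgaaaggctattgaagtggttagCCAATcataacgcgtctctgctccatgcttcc
Prc1: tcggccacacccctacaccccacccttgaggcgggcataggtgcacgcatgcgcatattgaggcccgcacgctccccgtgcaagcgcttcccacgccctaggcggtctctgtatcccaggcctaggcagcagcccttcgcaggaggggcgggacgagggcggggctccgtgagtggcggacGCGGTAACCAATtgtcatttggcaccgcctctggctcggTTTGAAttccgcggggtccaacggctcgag

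Values are log2 ratios of retina to reference. The sample labels place the retina in Cy5, but 3 probes of rod genes (*Sag*, *Gnat1*, *Pde6b*) were at least 4.18 brighter on the log2 scale in Cy3 on every array, so Cy3 was read as the retina, and all signs below are opposite to those the labels would give. The data were read in 3 ways. The offset ratio is the main one and was made from the scanner signals with an offset of 50, which draws the ratios of dim spots toward 0. The deposited ratio is the log2 ratio of the processed signals in the table of the authors, and the retina signal is the log2 signal of the retina color alone, quantile normalized and also with the offset of 50. A gene was called at an adjusted *p* under 0.05 with limma, adjusted after Benjamini and Hochberg over 55681 probes. The reference color of the members itself was not called in any of the 9 comparisons, except for 1 member that was higher in OIR mice on P28 than on P17. Over all probes, 6.34% were called in the reference color in that comparison, and at most 0.377% in the others.

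The members were low in the retina relative to the reference. Their mean offset ratio was below 0 for 33 of the 34, with a median of −2.39, against 0.02 over all genes, of which 41.4% were below 0. Of the 34, 7 (*Mcm4*, *Mcm5*, *Mcm6*, *Mcm7*, *Pcna*, *Plk1* and *Prc1*) were well above background in the retina color of all 77 mice, 2 (*Aurkb* and *Cdc6*) in none, and 25 in some. The number of members well above background in most mice of a group was 16 in both groups of P12, 15 in control and 17 in OIR mice on P17, and 25 and 26 on P28. Over all mice of a group, members were well above background in 49.5% (control) and 54.1% (OIR) of cases on P17. On P28 this was 66.2% and 71.0%. The brightest probes of all genes rose too, from 55.0% and 53.3% on P17 to 65.2% and 68.6% on P28.

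**Figure D1:**
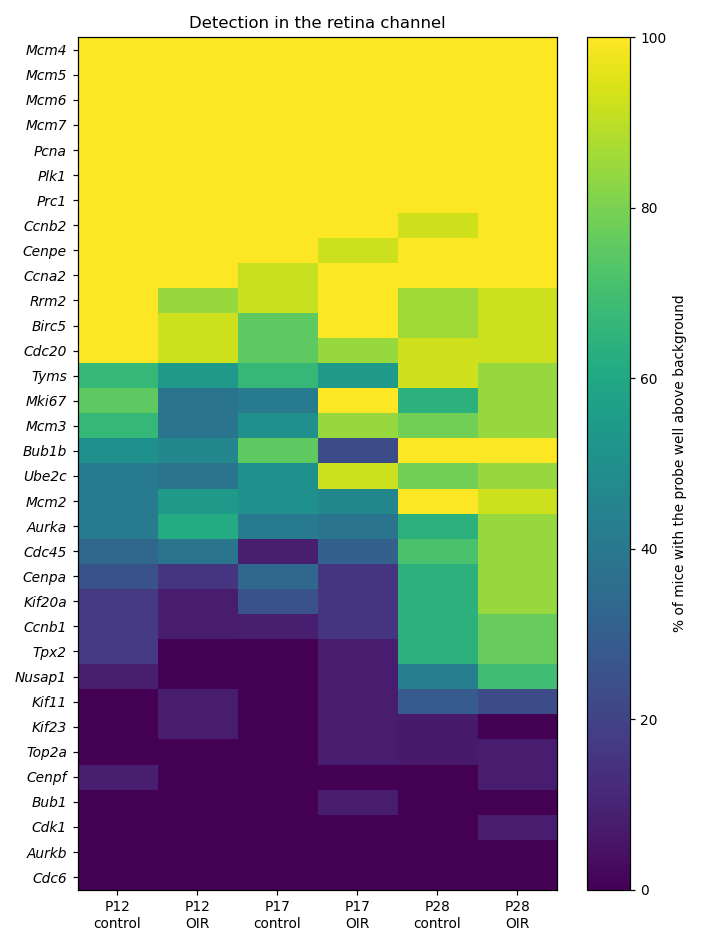
Share of the mice of each group in which the brightest probe of each member was well above background in the retina color, from 0 to 100%. On P17 Mki67 was above background in all 13 OIR mice and in 5 controls of 12.

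The offset ratios of the members followed through all 6 groups are given as the lowest, median and highest mouse. *Mcm5*, a helicase subunit seen in every mouse, lay at −3.34, −2.32 and −1.63 in OIR and −3.53, −2.28 and −1.83 in control mice on P12, −3.45, −2.19 and −1.78 in OIR and −3.55, −2.32 and −1.62 in control mice on P17, and −3.75, −3.55 and −1.64 in OIR and −3.75, −3.45 and −1.82 in control mice on P28. Its median was lower on P28 than on the earlier days in both treatments. The P28 median lay within the P17 range in control mice (−3.45) and below it in OIR mice (−3.55). For *Mcm4* the values were −4.14, −3.01 and −2.41 in OIR and −3.82, −3.08 and −2.76 in control mice on P12, −3.77, −2.81 and −2.57 in OIR and −3.78, −2.96 and −2.27 in control mice on P17, and −3.85, −3.68 and −2.52 in OIR and −3.81, −3.65 and −2.86 in control mice on P28. *Mcm6* stood at −4.13, −3.23 and −2.54 in OIR and −4.03, −3.33 and −2.87 in control mice on P12, −3.71, −2.97 and −2.48 in OIR and −4.05, −3.60 and −2.37 in control mice on P17, and −4.19, −3.90 and −2.79 in OIR and −4.23, −3.86 and −3.52 in control mice on P28. On P17 the OIR median of *Mcm6* lay above that of the controls with wide overlap, and both subunits had their lowest medians on P28. *Mcm7* ranged over −2.71, −2.45 and −1.99 in OIR and −2.83, −2.55 and −2.25 in control mice on P12, −2.80, −2.56 and −2.34 in OIR and −2.94, −2.64 and −2.07 in control mice on P17, and −3.20, −3.02 and −2.33 in OIR and −3.21, −3.01 and −2.50 in control mice on P28. Its range between mice was narrower than that of *Mcm5* in every group. *Mcm2* had values of −2.80, −1.56 and −0.67 in OIR and −2.67, −1.90 and −1.37 in control mice on P12, −2.66, −1.66 and −1.34 in OIR and −3.14, −1.85 and −0.73 in control mice on P17, and −2.98, −2.59 and −1.19 in OIR and −2.87, −2.54 and −1.65 in control mice on P28. The clamp *Pcna* gave −2.24, −1.72 and −1.18 in OIR and −2.05, −1.84 and −1.24 in control mice on P12, −2.16, −2.01 and −1.61 in OIR and −2.02, −1.77 and −1.52 in control mice on P17, and −1.72, −1.26 and −0.99 in OIR and −1.85, −1.41 and −1.03 in control mice on P28. In the offset ratio *Pcna* had its highest medians on P28 in both treatments, while *Mcm2* had its lowest there. In the deposited ratio the medians of *Mcm2* were instead highest on P28, at −3.65 in OIR and −3.72 in control mice. On P17 they were −4.38 and −4.49.

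The genes of nucleotide supply and mitosis spread further between mice. *Rrm2* lay at −5.37, −3.93 and −2.99 in OIR and −5.63, −3.90 and −3.50 in control mice on P12, −5.03, −3.52 and −3.01 in OIR and −5.85, −4.06 and −2.44 in control mice on P17, and −6.66, −6.39 and −2.91 in OIR and −6.75, −6.21 and −4.03 in control mice on P28. The P28 medians fell below every mouse of P17, while single mice of P28 reached values of P17. *Ube2c*, the ubiquitin carrier of the anaphase complex, lay at −4.38, −2.80 and −1.81 in OIR and −4.57, −2.95 and −2.52 in control mice on P12, −4.20, −2.60 and −2.26 in OIR and −4.54, −3.09 and −1.70 in control mice on P17, and −5.27, −4.66 and −2.20 in OIR and −4.98, −4.66 and −2.89 in control mice on P28. *Ccnb1* lay at −3.72, −2.13 and −1.30 in OIR and −3.75, −2.19 and −1.79 in control mice on P12, −3.42, −2.03 and −1.37 in OIR and −3.85, −2.27 and −1.09 in control mice on P17, and −4.48, −4.12 and −1.48 in OIR and −4.55, −3.87 and −2.27 in control mice on P28. Both had their lowest medians on P28, while the highest OIR mouse of P28 lay above the OIR median of P17. *Ccna2* varied less, with −2.33, −1.83 and −1.27 in OIR and −2.76, −1.74 and −1.49 in control mice on P12, −1.79, −1.59 and −1.19 in OIR and −2.25, −1.85 and −1.38 in control mice on P17, and −2.59, −1.84 and −1.35 in OIR and −2.27, −1.85 and −1.64 in control mice on P28. Its group medians lay between −1.85 and −1.59. *Top2a*, the topoisomerase that untangles sister chromatids, had offset ratios of −2.90, −1.53 and −0.57 in OIR and −2.84, −1.68 and −1.28 in control mice on P12, −2.65, −1.60 and −1.28 in OIR and −3.03, −1.71 and −0.84 in control mice on P17, and −3.87, −3.24 and −0.90 in OIR and −3.34, −2.87 and −1.61 in control mice on P28. The brightest probe of *Cdk1* lay at −0.06, −0.02 and 0.03 in OIR and −0.17, −0.01 and 0.10 in control mice on P12, −0.15, −0.01 and 0.19 in OIR and −0.22, −0.03 and 0.12 in control mice on P17, and −0.26, −0.12 and −0.01 in OIR and −0.24, −0.11 and 0.03 in control mice on P28. For this probe of *Cdk1* the ratio was near 0 in every group. Its spot was well above background in 1 mouse of 77 in the retina color and in 6 in the reference color. The ratio thus sets 1 signal near background against another and does not measure its level. The probe of *Top2a* was well above background in 3 mice of 77 in the retina color.

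The arrays themselves differed in brightness between scan days. The 32 mice scanned on scan day 4 had a 75th percentile of the raw retina signal between 29 and 511, against 9.5 to 76 in the other 45 mice, and the median offset ratio of the members was −3.08 (−3.60 to −1.96) against −1.92 (−2.52 to −1.20). Of the OIR mice, 2 of 13 on P12, 2 of 13 on P17 and 11 of 13 on P28 were scanned on that day, and of the control mice 3 of 12, 5 of 12 and 9 of 14. The offset ratio of these dim genes thus moved with the scan day, whose part in the results was not tested beyond the values given below without the mice of scan day 4.

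**Figure D2:**
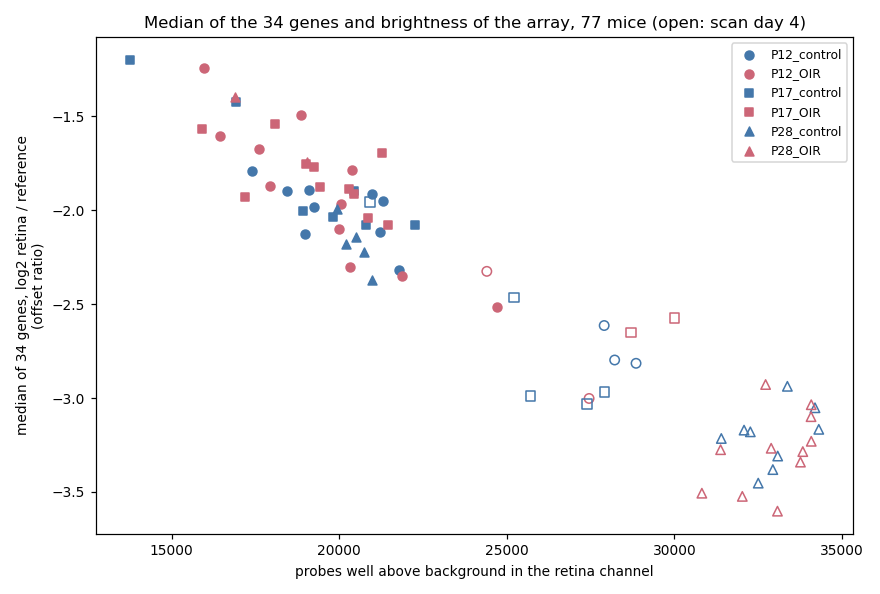
Median offset ratio (log2 retina to reference) of the 34 members in each of the 77 mice against how many probes its retina color held well above background, by group, with open symbols for scan day 4. The mice of scan day 4 sit between −3.60 and −1.96, and the others between −2.52 and −1.20.

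On P17, at the time of new vessel growth, a few members were called higher in OIR than in control mice in the deposited ratio and in the retina signal, and none in the offset ratio. *Mki67* differed most, with a deposited ratio 2.60 ± 0.26 (SE) above the controls, and *Birc5*, *Mcm3*, *Prc1* and *Rrm2* were called in both of these readings. With the deposited ratio 9 of 34 members were called higher, against 1.67% of all probes, and none lower. With the retina signal 5 of 34 were called higher, against 1.63%. The offset ratio gave no call among the 34 by limma, against 1.14% of all probes called in either direction, although 33 of 34 lay above 0 with a median of 0.25, where 48.1% of all genes lay above 0, and 8 of the 34 members had an unadjusted *p* under 0.05, against 10.4% of all probes.

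*Mki67* had deposited ratios of −6.11, −4.69 and −4.26 (lowest, median and highest) in OIR mice on P17 and of −8.97, −7.50 and −6.39 in controls. Every OIR mouse lay above every control mouse. The difference was 2.60 ± 0.26 on the log2 scale (adjusted *p* = 2.21e-07), and the retina signal differed by 0.90 ± 0.08 (adjusted *p* = 2.11e-08). With the offset ratio, OIR mice lay at −4.30, −3.02 and −2.63 and controls at −5.60, −3.83 and −2.21, so the groups overlapped and the difference was 0.86 ± 0.31 (adjusted *p* = 0.271). Spots well above background were found in 13 OIR mice of 13 and in 5 controls of 12. On all 6 slides that held both groups the difference was above 0, between 1.89 and 3.15 in the deposited ratio, and between 0.705 and 1.18 in the retina signal. A second, dimmer probe of *Mki67*, with a spot well above background in 7 OIR mice and 4 controls, was also called higher with the deposited ratio (1.32 ± 0.25, adjusted *p* = 0.00168) and the retina signal (0.39 ± 0.10, adjusted *p* = 0.0232), and like the first not with the offset ratio (0.61 ± 0.30, adjusted *p* = 0.492).

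*Birc5*, which joins Aurora B on the chromosomes and also blocks cell death, had deposited ratios of −6.23, −5.33 and −4.87 in OIR mice and −7.42, −6.73 and −5.96 in controls. Only the upper end of the controls reached into the OIR range. The difference was 1.29 ± 0.18 (adjusted *p* = 4.98e-05), against 0.65 ± 0.08 in the retina signal (adjusted *p* = 1.05e-05) and 0.74 ± 0.31 in the offset ratio (adjusted *p* = 0.374). It was above 0 on all 6 slides in the first 2 of these readings, and between −0.41 and 1.34 in the offset ratio. A spot well above background was found in 13 OIR mice of 13 and in 9 controls of 12. The 2 dimmer probes of *Birc5* were each well above background in 1 OIR mouse and in no control. Neither was called with the offset or the deposited ratio, and 1 of them was called higher with the retina signal (0.19 ± 0.05, adjusted *p* = 0.0259).

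*Mcm3*, a subunit of the replicative helicase, had deposited ratios of −4.70, −4.04 and −3.24 in OIR mice and −7.04, −4.98 and −4.59 in controls. *Mcm3* differed by 1.15 ± 0.23 in the deposited ratio (adjusted *p* = 0.003), by 0.34 ± 0.09 in the retina signal (adjusted *p* = 0.0373) and by 0.47 ± 0.22 in the offset ratio (adjusted *p* = 0.475). Most of the controls lay below the lowest OIR mouse, and 11 OIR mice of 13 and 6 controls of 12 had a spot well above background. *Prc1* was above background in every mouse of both groups. Its deposited ratios were −4.67, −3.52 and −3.15 in OIR mice and −4.70, −4.36 and −3.80 in controls. The ranges of *Prc1* overlapped, and it differed by 0.69 ± 0.15 (adjusted *p* = 0.00628), by 0.36 ± 0.06 in the retina signal (adjusted *p* = 0.00021) and by 0.44 ± 0.21 in the offset ratio (adjusted *p* = 0.471).

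**Figure D3:**
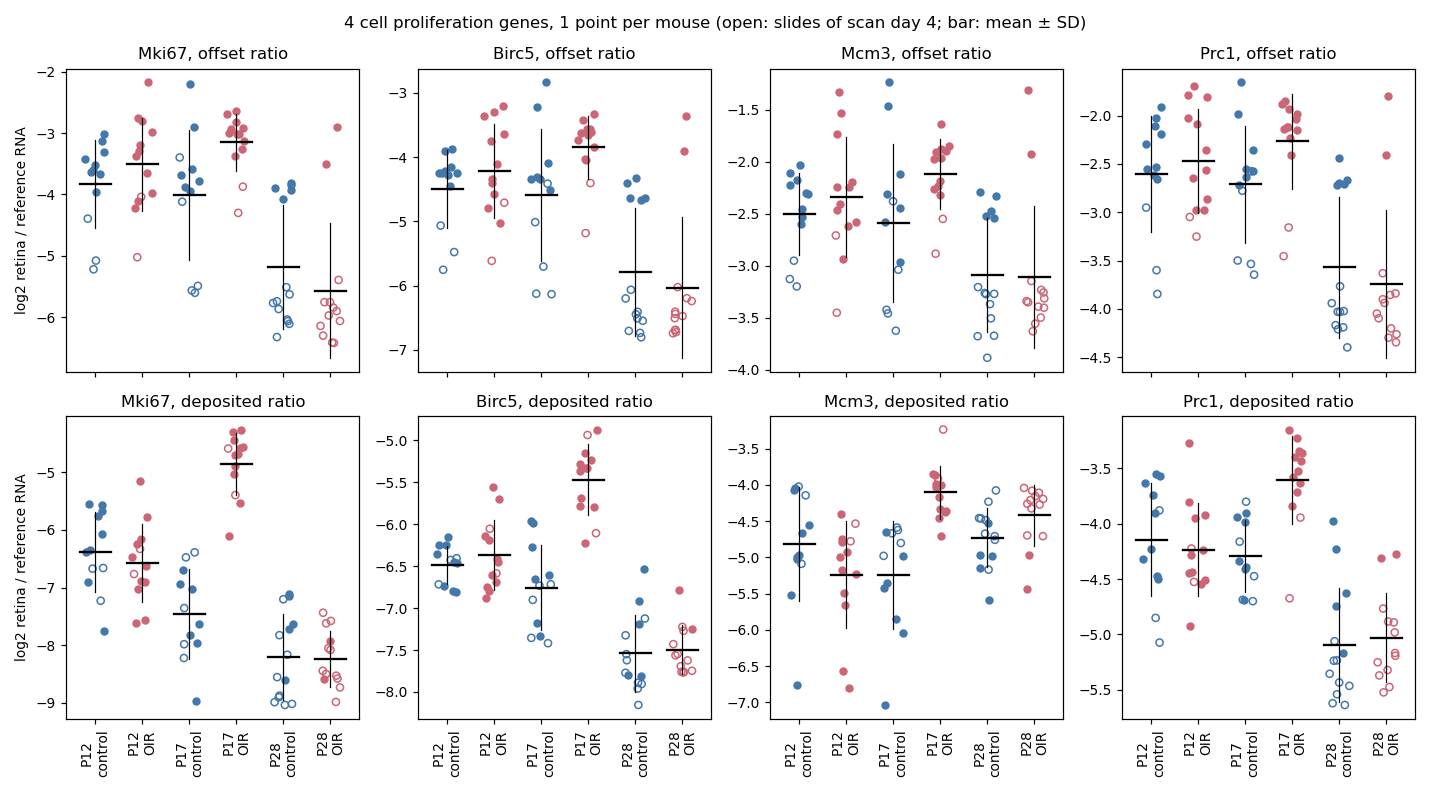
Log2 ratio of retina to reference of Mki67, Birc5, Mcm3 and Prc1 in each mouse (points, open for scan day 4; bars are mean and SD) by day and treatment, with the offset ratio above and the deposited ratio below. In the deposited ratio of Mki67 on P17 the 13 OIR mice sit between −6.11 and −4.26, all above the 12 controls.

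The other members called higher on P17 with the deposited ratio were *Rrm2*, *Cdc20*, *Ube2c*, *Ccnb2* and *Mcm6*. *Rrm2*, the regulated subunit of ribonucleotide reductase, lay at −6.06, −5.17 and −4.86 in OIR mice and at −7.38, −6.42 and −4.99 in controls, a difference of 1.03 ± 0.22 (adjusted *p* = 0.00579), and it was also called with the retina signal (0.43 ± 0.10, adjusted *p* = 0.0155). Its groups overlapped. *Cdc20* and *Ube2c*, both of the anaphase-promoting machinery, differed by 0.90 ± 0.21 (adjusted *p* = 0.0137) and 0.87 ± 0.22 (adjusted *p* = 0.0315). For *Ube2c*, 12 OIR mice of 13 and 6 controls of 12 had a spot well above background. The cyclin *Ccnb2* differed by 0.57 ± 0.11 (adjusted *p* = 0.0031) and the helicase subunit *Mcm6* by 0.55 ± 0.14 (adjusted *p* = 0.0255). None of these 5 was called with the offset ratio. *Pcna*, which also serves DNA repair, was the member with an offset ratio below 0, at −0.13.

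**Figure D4:**
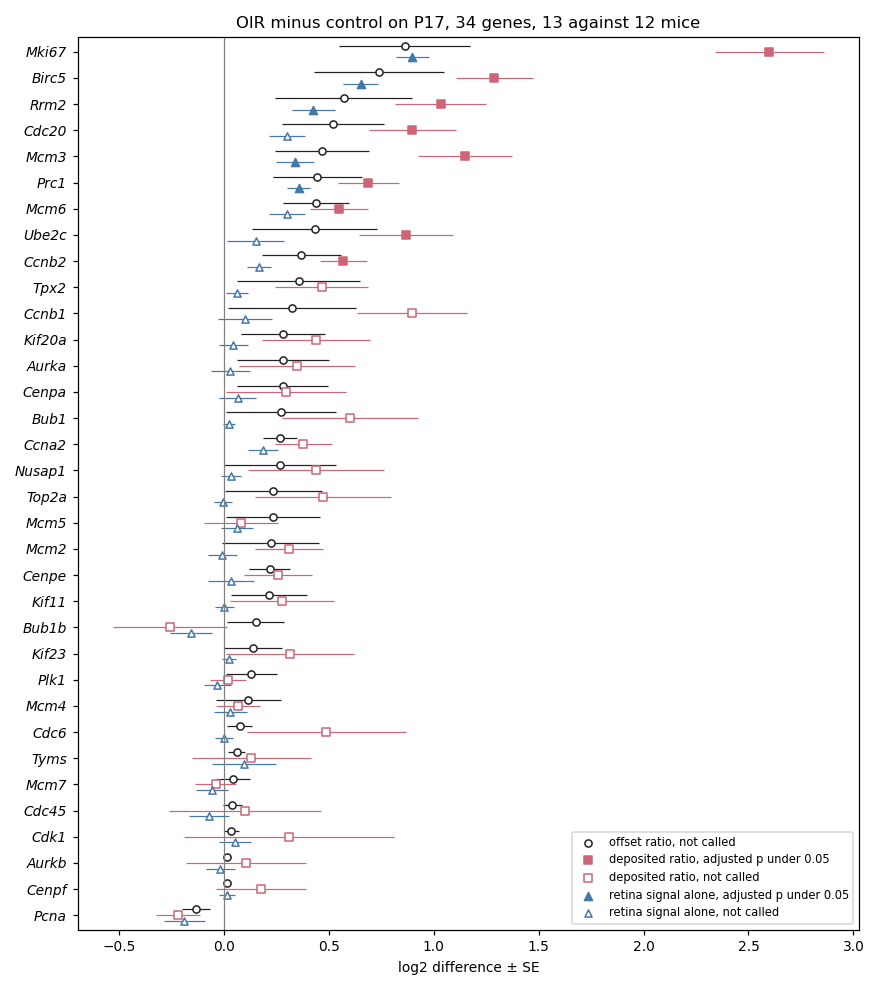
Difference of OIR from control mice on P17 (log2, with SE) of the 34 members in the offset ratio (circles), the deposited ratio (squares) and the retina signal (triangles), filled where called. Mki67 differs most, by 0.86, 2.60 and 0.90 in the 3 readings.

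Across 17 settings of the P17 comparison *Mki67* was called in 8, and *Birc5*, *Mcm3* and *Prc1* in 7 each. *Mcm6* was called in 6, *Rrm2*, *Cdc20* and *Ccnb2* in 4, and *Ube2c* and *Ccna2* in 2. The value of each of the 10 was above 0 in all 17 settings. Without the mice of scan day 4 (11 OIR and 7 control mice remained) the median offset ratio difference of the members was 0.02, and 13 of 34 were below 0. The offset ratio then called none, against 0.867% of all probes. The deposited ratio then called *Birc5*, *Ccnb2*, *Mcm3*, *Mki67* and *Prc1* higher, against 1.43%, and the retina signal *Birc5*, *Mcm3*, *Mcm6*, *Mki67* and *Prc1*, against 1.34%.

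Beyond the members, 87 further genes of the cell cycle were read from 4 lists. In the offset ratio 4 were called higher and 1 lower in OIR mice on P17, against 1.14% of all probes called in either direction. *Ccnd1* and *Ccnd3*, D cyclins that bring cells into the cycle, differed by 0.55 (adjusted *p* = 0.0386) and 0.29 (adjusted *p* = 0.00266), and the stress genes *Gadd45b* and *Gadd45g*, which restrain the cycle, by 1.21 (adjusted *p* = 0.00302) and 0.24 (adjusted *p* = 0.0388). The kinetochore gene *Spc25* was lower by −1.64 ± 0.14 (adjusted *p* = 5.39e-08). By list, 2 of 22 genes of G1 and S control and 2 of 15 inhibitors were called higher, and 1 of 28 genes of mitosis was called lower, whereas none of 22 genes of replication and chromatin was called. The median difference of the 87 genes was 0.15. With the deposited ratio 11 were called higher, against 1.67% of all probes, and 2 lower. Among these were *E2f1* (1.15), *Uhrf1* (1.06), *Cdkn1a* (1.40) and *Ccne1* (−0.41). The retina signal called 8 higher, against 1.63% of all probes, and 3 lower. The share of all probes called lower is not given for either reading, so the lower counts are not read further.

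Markers of cells that could hold this RNA were set beside the members on P17. In the offset ratio 1 of 10 endothelial genes was called higher (*Egfl7*, 1.09), 2 of 6 pericyte genes (*Cspg4*, 0.73, and *Notch3*, 0.63), 2 of 10 microglia and macrophage genes (*Aif1* and *Csf1r*), 2 of 5 astrocyte genes (*Gfap* and *Aldh1l1*), 1 of 8 Mueller glia genes (*Vim*, 1.19), 1 of 4 red blood cell genes (*Hba-a1*) and 1 of 9 progenitor genes (*Ccnd1*). The medians of these lists were, in the same order, 0.11, 0.28, 0.20, 0.27, −0.34, 0.53 and −0.09. In the ganglion cell, lens and pigment epithelium lists 1 of 5 genes each was called lower. No rod or bipolar gene was called. Over all probes 1.14% were called in either direction. The retina signal called 4 of 10 endothelial, 3 of 6 pericyte and 5 of 10 microglia and macrophage genes higher, against 1.63% of all probes. The summed retina signal of the endothelial genes was 3073, 4617 and 5536 (lowest, median and highest) in OIR mice and 1953, 2844 and 4070 in controls. That of the pericyte genes was 778, 973 and 1431 against 550, 714 and 795, and that of microglia and macrophages 2811, 11435 and 14711 against 2063, 9000 and 14053. The endothelial and pericyte sums were shifted upward with overlap between the groups. So were those of the red blood cell genes (754, 2432 and 5099 against 676, 785 and 925) and the astrocyte genes (909, 1188 and 1450 against 713, 837 and 966). In the other marker lists the OIR median was below that of the controls, as for Mueller glia (14411 against 15746). The part of any of these cells in the difference of the members was not tested.

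On P12, at the end of hyperoxia, no member was called in any setting. The offset ratio called 0.0216% of all probes, all of them lower in OIR mice, the deposited ratio 0.07% and the retina signal 0.0736%, while in the offset ratio 32 of 34 members lay above 0 with a median of 0.14. The largest differences were those of *Mki67* (0.32), *Nusap1* (0.31) and *Mcm2* (0.31), and only *Cenpe* (−0.01) and *Aurkb* lay below 0. *Nusap1* was well above background in 1 mouse of P12, a control, and *Aurkb* in none. The deposited ratios of *Mki67* were −7.62, −6.62 and −5.15 in OIR and −7.75, −6.37 and −5.56 in control mice on P12, so the groups covered the same range. None of the 87 further cell cycle genes was called on P12 in any of the 3 readings.

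With all mice, again no member was called on P28, against 0.0611% of all probes in the offset ratio, 0.203% in the deposited ratio and 0.296% in the retina signal, and 31 of 34 offset ratios lay below 0 with a median of −0.18. The lowest were *Tpx2* (−0.40), *Top2a* (−0.39) and *Mki67* (−0.38), and the highest *Pcna* (0.16), *Bub1b* (0.12) and *Mcm6* (0.06). The deposited ratios of *Mki67* were −8.98, −8.44 and −7.44 in OIR and −9.03, −8.36 and −7.11 in control mice, again over the same range. Without the mice of scan day 4 only 2 OIR and 5 control mice remained on P28, and there the offset ratio called 18 members higher in OIR mice, with a median of 0.51, where 3.47% of all probes were called higher. These were *Aurka*, *Birc5*, *Bub1*, *Bub1b*, *Ccnb1*, *Ccnb2*, *Cdc20*, *Kif11*, *Kif20a*, *Mcm2*, *Mcm3*, *Mcm4*, *Mki67*, *Nusap1*, *Rrm2*, *Top2a*, *Tpx2* and *Ube2c*. The deposited ratio called *Ccnb1* higher in these mice, against 0.735% of all probes. The retina signal called *Ccnb1*, *Pcna* and *Ube2c* higher, against 4.28%, and *Tyms* lower, against 1.96%. The 2 OIR mice lay on slides 10 and 11 (scan days 1 and 2). The 5 controls lay on slides 1 to 3 (scan day 3), so treatment, slide and scan day cannot be told apart here.

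Whether the OIR effect itself differed between days was tested as an interaction. In the offset ratio no member passed, against 0.487% of all probes for P17 against P12 and 0.278% for P28 against P17. With the deposited ratio the effect was greater on P17 than on P12 for 7 members, against 1.2% of all probes, led by *Mki67* (by 2.79, adjusted *p* = 5.31e-08), *Mcm3* (1.57) and *Birc5* (1.17) and with *Rrm2*, *Cdc20*, *Mcm6* and *Ccnb2* also called, and smaller on P28 than on P17 for *Mki67* (−2.64) and *Birc5* (−1.25), against 0.472%. The retina signal called *Mki67*, *Birc5*, *Rrm2*, *Mcm3* and *Prc1* for the first contrast, against 1.35%, and *Mki67* and *Birc5* for the second, against 0.666%.

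Within the OIR mice up to 13 members rose from P12 to P17 in the deposited ratio and the retina signal. With the deposited ratio 13 were called higher on P17, against 4.01% of all probes, and *Mcm7* lower (−0.28), against 3.5%. *Mki67* rose by 1.72 ± 0.26 (adjusted *p* = 3.06e-07), *Mcm3* by 1.14 ± 0.23, *Ube2c* by 1.0 ± 0.23, the kinetochore motor *Cenpe* by 0.91 ± 0.14 (adjusted *p* = 4.91e-07) and *Birc5* by 0.90 ± 0.16. *Ccna2*, *Ccnb1*, *Ccnb2*, *Cdc20*, *Kif20a*, *Mcm6*, *Prc1* and *Rrm2* were the other 8. The retina signal called 9 of the 13 higher (all but *Ccnb1*, *Cdc20*, *Kif20a* and *Ube2c*), against 4.44%, and *Mcm7* lower, against 3.93%. The offset ratio called none, against 3.42% of all probes in either direction, with a median of 0.04. On the 7 slides shared by both groups, *Mki67*, *Birc5*, *Mcm3*, *Mcm6*, *Rrm2*, *Ccna2*, *Ccnb2* and *Ube2c* were above 0 on all 7 in the deposited ratio and in the retina signal. In the offset ratio *Mki67* was above 0 on all 7, while the lowest slide gave −0.07 for *Birc5* and −0.23 for *Rrm2*.

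In the control mice no such rise was called over these days. The offset ratio called no member from P12 to P17, against 1.28% of all probes, and the median was −0.04. *Mki67* was lower on P17 by −1.07 with the deposited ratio (adjusted *p* = 0.00967, against 1.3% of all probes called lower) and by −0.33 with the retina signal (adjusted *p* = 0.00192, against 1.47%). It was the single member called. Its control deposited ratio had a median of −6.37 on P12, −7.50 on P17 and −8.36 on P28.

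From P17 to P28 many members were called lower in both OIR and control mice, but how many passed depended on the reading and on the scan day. In OIR mice the offset ratio called 31 of 34 lower, against 19.5% of all probes, and *Pcna* higher, against 21.1%. *Mki67* fell by 2.42 ± 0.34 (adjusted *p* = 5.74e-08), *Rrm2* and *Birc5* by 2.19 each, *Ube2c* by 1.68 and *Ccnb1* by 1.67. The other members called lower were *Aurkb*, *Cdc20*, *Tpx2*, *Prc1*, *Bub1*, *Nusap1*, *Top2a*, *Kif20a*, *Ccnb2*, *Mcm2* to *Mcm7*, *Aurka*, *Kif11*, *Kif23*, *Cenpa*, *Cenpe*, *Plk1*, *Cdc6*, *Ccna2*, *Tyms*, *Cdc45* and *Cdk1*. Of the 31, *Aurkb* and *Cdc6* were well above background in no mouse of either group, so no fold is given for them, and *Bub1*, *Cdk1* and *Kif23* each in 1 mouse of both groups together. *Nusap1* rose from 1 to 9 mice with a spot above background while its offset ratio fell by 1.35. A second probe of *Cdk1*, well above background in 1 mouse on P17 and 10 on P28, gave −1.42 where the brightest gave −0.14.

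The deposited ratio called 23 members lower and 4 higher in the same comparison, against 19.3% and 25% of all probes, and the retina signal called 13 lower and 4 higher, against 17.8% and 20.5%. The 23 were the 31 of the offset ratio without *Aurka*, *Ccna2*, *Cdc45*, *Cenpa*, *Mcm2*, *Mcm3*, *Mcm7* and *Tyms*. The 13 were *Mki67*, *Birc5*, *Rrm2*, *Prc1*, *Cdc20*, *Ube2c*, *Cenpe*, *Ccnb2*, *Plk1*, *Mcm4*, *Mcm5*, *Cdk1* and *Bub1*. *Mki67*, *Birc5*, *Rrm2* and *Prc1* fell most in the retina signal, by 0.96 ± 0.07, 0.78 ± 0.07, 0.73 ± 0.08 and 0.61 ± 0.07. *Bub1b* rose by 1.67 ± 0.23 in the deposited ratio (adjusted *p* = 2.21e-08), and *Pcna* (0.96 ± 0.13), *Cenpa* (0.64 ± 0.26) and *Mcm2* (0.57 ± 0.15) with it. *Cenpa* and *Mcm2* were called lower with the offset ratio and higher with the other 2 readings, so their direction is not settled by these data. *Pcna* was higher on P28 in all 3.

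Most of the OIR mice of P28 were scanned on scan day 4, so scan day and age moved together here. Without those mice 2 OIR mice of P28 stood against 11 of P17, and the offset ratio called no member, against 0.647% of all probes, with a median of 0.16. The deposited ratio then called *Birc5*, *Cenpe* and *Mki67* lower, against 0.788%, and the retina signal *Birc5* and *Mki67* lower, against 0.55%, and *Bub1b* higher, against 0.557%. Across 16 settings of the comparison *Mki67* and *Birc5* were called lower in 15. The one slide shared by both groups held 1 and 2 mice.

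**Figure D5:**
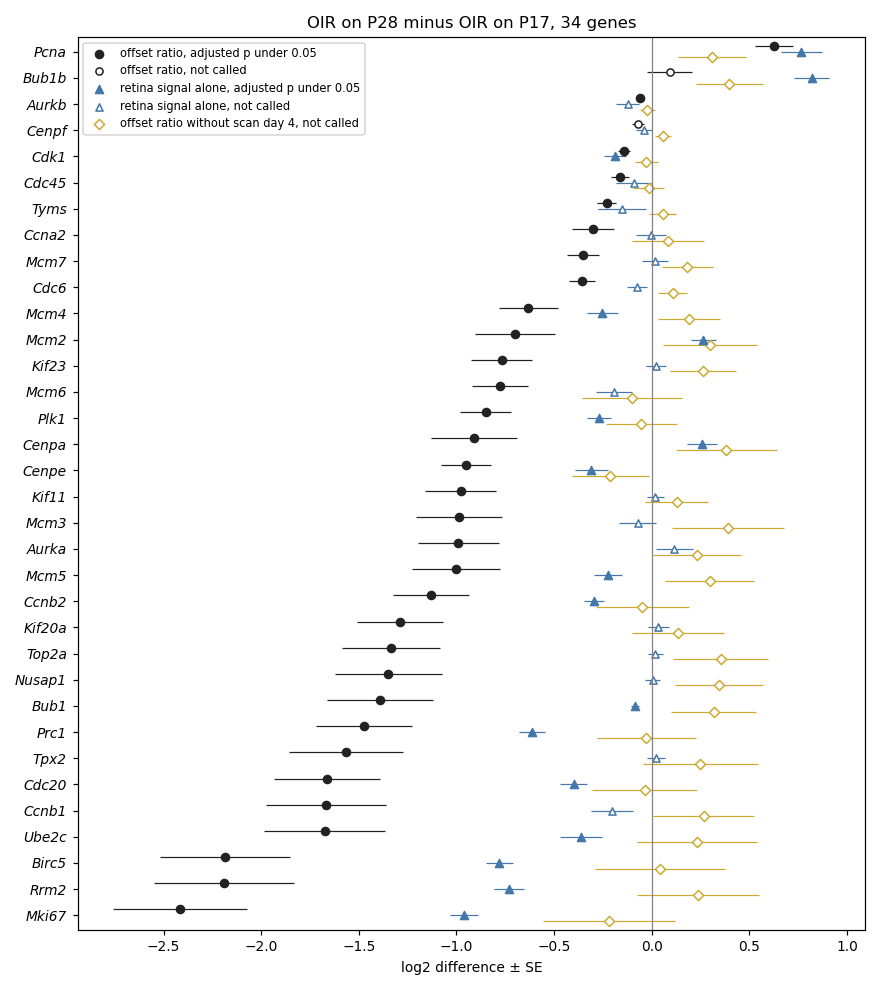
Difference of OIR mice on P28 from OIR mice on P17 (log2, with SE) of the 34 members in the offset ratio with all mice (circles), the retina signal (triangles) and the offset ratio without scan day 4 (diamonds), filled where called. Of the 34 circles, 31 were called lower, while no diamond was called.

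In the control mice the offset ratio called 15 members lower on P28 than on P17, against 5.39% of all probes, and *Pcna* higher (0.34 ± 0.10, adjusted *p* = 0.0111), against 7.97%. *Rrm2* fell by 1.37 ± 0.36 (adjusted *p* = 0.00586), *Birc5* by 1.21, *Mki67* by 1.17 and *Ccnb1* by 1.09. *Ube2c*, *Cdc20*, *Prc1*, *Kif20a*, *Cenpe*, *Ccnb2*, *Aurka*, *Plk1* and *Mcm7* fell by 0.96 to 0.27. *Bub1* and *Top2a* were also called, but *Bub1* was well above background in no control mouse of either day and *Top2a* in 1 of P28, so no fold is given. The deposited ratio called 11 lower (*Birc5*, *Bub1*, *Ccnb1*, *Cdc20*, *Cenpe*, *Kif11*, *Mki67*, *Plk1*, *Prc1*, *Rrm2* and *Top2a*) and *Bub1b*, *Cenpa*, *Mcm2* and *Pcna* higher, against 8.01% and 11.7% of all probes, and the retina signal 7 lower (*Bub1*, *Ccnb2*, *Cdk1*, *Cenpe*, *Plk1*, *Prc1* and *Rrm2*) and the same 4 higher, against 5.19% and 9.92%. *Rrm2* fell by 1.31 ± 0.21 and *Prc1* by 0.81 ± 0.17 in the deposited ratio, and like *Bub1*, *Cdk1* was well above background in no control mouse of P17 or P28. Without the mice of scan day 4 the offset ratio called none, against 1.89% of all probes.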

How the data were processed

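Whole retinas of 77 mice were measured on Agilent 8x60K 2-color arrays against a common reference RNA. Per the file headers, the deposited scanner files hold median signals and backgrounds as intensity values extracted by Feature Extraction 10.7.3.1, and a table from the authors gives the log2 ratio of the processed Cy3 to Cy5 signal per probe. The table matched log2 Cy3 over Cy5 for every probe with 1 spot, within 0.001. Median signals were corrected with normexp (offset of 50) and loess within each array in limma 3.58.1 (R 4.3.3), leaving out outlier spots (0.592 to 0.951% per array). OIR was compared with control on each day, and the other contrasts were fitted in 1 model of 6 group means, with the Benjamini-Hochberg adjustment. Members called in these comparisons were named, otherwise the 3 largest differences in each direction. The members, lists and tests were chosen with earlier results of these data known. Alternatives were other background corrections, the deposited ratio, the retina signal (quantile normalized), the slide as a block, array weights, a brightness filter and other probes, and, chosen after seeing the data, the slide block on those readings and leaving out scan day 4. The highest correlation between 2 arrays was 0.988, so no array was counted as a repeat. The fitting step was run on simulated data with independent normal noise for each probe. Those data held no slide, scan day or brightness effect, so that run cannot speak to such effects. Protein motifs were not analysed here.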

Additional observations from a re-analysis of the deposited data

Results flagged for a closer look

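The OIR effect, that is the difference of OIR from control mice, differed between days by the interaction test of limma for the following genes. From P12 to P17 it grew in the deposited ratio by 2.79 for *Mki67* (adjusted *p* = 5.31e-08), 1.57 for *Mcm3* (0.00173), 1.17 for *Birc5* (0.000318), 1.14 for *Rrm2* (0.0287), 0.86 for *Cdc20* (0.036), 0.75 for *Mcm6* (0.0125) and 0.70 for *Ccnb2* (0.00431), on the log2 scale. In the retina signal it grew by 0.95 for *Mki67* (adjusted *p* = 3.43e-11), 0.65 for *Birc5* (4.12e-06), 0.54 for *Rrm2* (0.000719), 0.48 for *Mcm3* (0.0424) and 0.43 for *Prc1* (0.00378).

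From P17 to P28 the effect changed by −2.64 for *Mki67* (adjusted *p* = 9.04e-07) and −1.25 for *Birc5* (0.000258) in the deposited ratio, and by −0.91 for *Mki67* (6.41e-10) and −0.64 for *Birc5* (1.15e-05) in the retina signal. None of these was called with the offset ratio. *Spc25*, a kinetochore gene outside the 34, was called with the offset ratio, with a change of −1.35 from P12 to P17 (6.81e-05) and of 1.40 from P17 to P28 (5.31e-05). What lies behind these differences was not tested.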

How the results depend on the processing

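From OIR P17 to P28 *Cenpa* and *Mcm2* were called lower with the offset ratio (−0.91 and −0.70) and higher with the deposited ratio (0.64 and 0.57) and the retina signal (0.26 for each), and no other member was called in opposite directions by the offset ratio and an alternative. Counts and medians not given here stayed within 1.5 times the main count or within the spread between mice. The number of members called higher in OIR than in control mice on P17, 0 with the offset ratio, was 9 with the deposited ratio, 9 with the slide as a block on it and 5 without scan day 4, 5, 9 and 5 in the same 3 forms of the retina signal, 6 with a normexp offset of 0, 2 with array weights and 1 without background correction. From OIR P12 to P17 the higher count, 0, became 13, 14 and 10 in the 3 forms of the deposited ratio, 9, 11 and 7 of the retina signal, 7 with offset 0, 4 with the slide block, and 1 with array weights or without background correction, and the lower count was 1 in all 6 forms of the 2 other readings. The effect on P17 against P12 was higher for 7, 11 and 6 members, for 5, 7 and 5, and for 3 with offset 0. The effect on P28 against P17 was lower for 2, 3 and 1, for 2, 3 and 1, and for 2 with offset 0, and its median was 0.38 without scan day 4. From control P12 to P17 the lower count was 1, 1 and 1, and 1, 2 and 1.

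From OIR P17 to P28 the lower count, 31, was 16 with the deposited ratio and the block and 3 without scan day 4, 13, 14 and 2 in the retina signal, and 0 in the offset ratio without scan day 4. The higher count, 1, was 4, 2 and 0 in the deposited ratio, 4 and 2 in the retina signal with all mice, 2 with offset 0 and 0 without scan day 4. The median, −0.96, was −0.10 in the deposited ratio without scan day 4, −0.089, −0.091 and −0.035 in the retina signal, and 0.16 in the offset ratio without scan day 4. From control P17 to P28 the lower count, 15, was 29 with array weights, 7 with the deposited ratio and the block and 0 without scan day 4, 7, 6 and 1 in the retina signal, and 0 without scan day 4. Its higher count, 1, was 4 and 4 in the deposited ratio, 4, 4 and 0 in the retina signal, 2 with offset 0, 2 with the slide block and 0 without scan day 4. On P28 OIR against control, without scan day 4, 18 members were higher with a median of 0.51 in the offset ratio, 1 in the deposited ratio, and 3 higher and 1 lower in the retina signal. The cause of these changes was not tested. Leaving out scan day 4 leaves fewer mice, 2 in OIR on P28. These 2 lay on slides and scan days that held none of the remaining P28 controls.

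No paired analysis was possible because every mouse number occurs in 1 group only. The search of protein motifs was not run. Of the 34 members, 27 were not well above background in every mouse, which limits their values.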
